A study of Mus musculus with 8 samples.

Results

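The genes described here are 32 immediate early genes, measured in fibroblasts sorted from mouse back skin: 22 transcription factors and 10 partners that act in the same early response. A member was a listed gene with at least 1 probe set annotated to it alone, and of several such probe sets the one with the highest mean signal was used. All 32 listed genes were measured, out of 17097 genes in all. The animals were 8 mice aged 12 months when treatment began. In the GW9662 group, 4 animals received 150 nmol GW9662, a compound that blocks the nuclear receptor PPARG covalently, in 300 µl acetone on the back skin 3 times per week for 6 months. The vehicle group of 4 animals received 300 µl acetone alone on the same schedule. No strain, sex, transgene or other allele is given for either group in the labels used here. Dermis was digested with collagenase, and cells positive for Pdgfra and Cd34 and negative for CD45, CD117, CD24, CD31 and EpCam were sorted. RNA of 5000 cells per animal was amplified over 21 cycles and hybridised to 1 array. Per the series' design text, 1 GW9662 animal and 1 vehicle animal were taken on each day, and the labels number the animals of each group 1 to 4. The comparisons asked whether the early genes differed between GW9662 and vehicle, whether they moved together between animals, and how animals 1 and 2 of both groups compared with animals 3 and 4.

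Immediate early genes are transcribed within minutes of a stimulus without new protein synthesis, because the factors that switch them on, such as SRF with its ETS partners and CREB, are already in the cell and are activated by MAP kinases and other signals. Their products include the AP-1 factors of the Fos and Jun families, the Egr zinc fingers and the Nr4a orphan nuclear receptors, which act on later genes, and inhibitors such as Dusp1 and Socs3, which end the signal. In fibroblasts the response is the classical answer to serum and wounding, and digestion of tissue into single cells is known to induce it. All 8 samples were digested and sorted, no undigested skin was analysed here, and the part of digestion in the levels below was not tested.

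Promoter sequences were available for 25 of the 32 genes, as 300-base windows around the RefSeq transcript starts of mouse build GRCm38.p6. The letters TGACG, the core of the element bound by CREB and ATF factors, lay on either strand in 15 of the 25 genes (60.0%), against 23.0% of 27025 genes. The full palindrome TGACGTCA, which contains TGACG, was found in Btg2, Dusp1 and Maff (12.0%, against 2.0%). The Egr motif GCGNGGGCG lay in 10 genes (40.0%, against 6.3%), the AP-1 motif TGANTCA in 1, Csrnp1 (4.0%, against 9.0%), the ETS motif GGAAGT in 5 (20.0%, against 26.5%), and the CArG box, the site of SRF, in 1, Egr2 (4.0%, against 1.8%). A gene was counted where any of its windows held the letters, and 3 of the 25 genes had more than 1 window. The windows were richer in G and C than those of all genes (median 64.7%, against 52.8%), and the motif shares were not adjusted for this. These are matches of letters, not measured binding. Sites outside the windows were not searched, so a gene counted without a motif may hold it further away. The 7 genes without a window were Egr1, Egr3, Fosl1, Ier2, Klf10, Myc and Sik1. The windows shown are those of Fos, the classical early gene, of Junb, Nr4a1 and Nr4a3, whose values varied more between samples, and of Egr2, which did not follow them. Capitals mark TGACG on either strand and, in Egr2 alone, also the CArG box. TGACG lies at -129 to -125 and -66 to -62 from the start of Fos (chr12:85473640-85473939, plus strand), and at -106 to -102 in Junb (chr8:84978699-84978998, minus strand). Nr4a1 (chr15:101266596-101266895, plus strand) and Nr4a3 (chr4:48045055-48045354, plus strand) each hold several, and Egr2 (chr10:67537619-67537918, plus strand) holds a CArG box at -72 to -63 between 2 TGACG sites.
Fos: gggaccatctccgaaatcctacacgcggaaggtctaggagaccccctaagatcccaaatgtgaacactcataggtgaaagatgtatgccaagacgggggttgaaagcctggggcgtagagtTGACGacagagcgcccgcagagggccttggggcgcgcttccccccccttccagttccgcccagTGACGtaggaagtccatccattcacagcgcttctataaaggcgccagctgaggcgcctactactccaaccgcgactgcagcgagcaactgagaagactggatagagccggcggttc
Junb: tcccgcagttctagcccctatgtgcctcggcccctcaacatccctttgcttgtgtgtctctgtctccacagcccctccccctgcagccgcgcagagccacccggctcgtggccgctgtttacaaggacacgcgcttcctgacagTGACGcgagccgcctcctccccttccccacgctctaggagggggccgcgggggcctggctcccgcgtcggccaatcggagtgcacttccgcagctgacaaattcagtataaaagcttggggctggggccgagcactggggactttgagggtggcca
Nr4a1: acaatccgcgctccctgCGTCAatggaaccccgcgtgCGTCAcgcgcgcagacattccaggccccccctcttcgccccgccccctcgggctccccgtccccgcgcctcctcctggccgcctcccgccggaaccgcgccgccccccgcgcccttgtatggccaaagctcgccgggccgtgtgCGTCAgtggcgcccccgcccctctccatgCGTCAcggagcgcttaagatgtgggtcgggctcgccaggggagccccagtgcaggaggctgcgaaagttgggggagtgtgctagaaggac
Nr4a3: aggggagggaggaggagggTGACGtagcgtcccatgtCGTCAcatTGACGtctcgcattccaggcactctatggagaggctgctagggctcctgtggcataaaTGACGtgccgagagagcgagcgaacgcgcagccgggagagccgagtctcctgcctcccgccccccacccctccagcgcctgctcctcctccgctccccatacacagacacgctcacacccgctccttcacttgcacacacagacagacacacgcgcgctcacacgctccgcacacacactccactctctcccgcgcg
Egr2: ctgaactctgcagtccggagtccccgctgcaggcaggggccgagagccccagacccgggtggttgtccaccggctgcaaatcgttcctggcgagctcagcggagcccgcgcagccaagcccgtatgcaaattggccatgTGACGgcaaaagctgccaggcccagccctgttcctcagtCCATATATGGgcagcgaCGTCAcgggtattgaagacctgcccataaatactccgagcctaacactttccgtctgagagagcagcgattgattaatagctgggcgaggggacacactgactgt

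The values are log2 signals, 1 array per animal, so the spread between samples is that between animals together with their handling, and p-values measure that spread. The sample medians over all probe sets lay between 4.63 and 4.69. Among the genes of the sort, Cd34 measured 10.49 to 10.81 and the negative markers Ptprc (CD45), Kit (CD117), Cd24a and Epcam 2.81 to 4.07, while Pdgfra, a positive marker, measured 4.63 to 5.13 and Pecam1 (CD31), a negative one, 4.63 to 5.27. The mean of 10 fibroblast markers was 10.15 to 10.41, and that of the keratinocyte, immune, mast cell and melanocyte, mural and muscle, and adipocyte lists 4.18 to 4.93. No detection calls were used, so dim probe sets may or may not exceed background, and signals of different probe sets do not compare as amounts of transcript. Vehicle 4 lay far out on principal component 1 (22.2, with the other 7 samples at -10.4 to 5.49), and the main counts and some of the values it moved are given with and without it. At most 3.05% of the values were identical between any 2 samples, and all 8 were counted as separate.

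Between GW9662 and vehicle, the immediate early genes showed no difference that passed the test. Of the 32 genes, 13 had a higher and 19 a lower mean after GW9662, with a median log2 difference of -0.0075, and all genes together had a median of -0.005. Without vehicle 4 the median of the 32 was -0.0046. By limma with Benjamini-Hochberg adjustment over 17097 genes, 0 of the 32 passed (0.0% of all genes did), with adjusted p of at least 0.997. At an unadjusted p under 0.05 in limma the count was 0 of 32, against 3.38% of all genes (1.57% higher and 1.81% lower). In all genes, 51.8% were lower after GW9662 by any amount. The groups overlapped in each of the 32 genes, whereas they did not in 1.75% of all genes (0.708% higher and 1.05% lower after GW9662). The 95% interval of each of the 32 differences included 0. These intervals were wide for the most variable genes, from -0.75 to 0.52 for Socs3 and from -0.63 to 0.62 for Maff, and narrow for others, from -0.18 to 0.10 for Fos and from -0.12 to 0.21 for Egr1.

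The gene with the smallest unadjusted p between the treatments was Egr2, a zinc finger factor that also acts in fibroblasts and Schwann cells. Egr2 measured 9.76, 9.83, 9.78 and 9.60 in GW9662 samples 1 to 4, against 9.57, 9.52, 9.75 and 9.46 in vehicle samples 1 to 4. The GW9662 sample was the higher one in 4 of 4 same-numbered pairs, although the groups overlapped through vehicle 3. The mean difference was 0.17 ± 0.08 (SE, n = 4 per group; 95% interval -0.01 to 0.34; limma unadjusted p = 0.0616, adjusted p = 0.997), and its other probe set gave 0.18. With the replicate number as a block, the limma unadjusted p of Egr2 was 0.0443 and its adjusted p 0.966. Gadd45g, a growth arrest gene induced by stress, was the lowest after GW9662, with 9.81, 9.86, 9.81 and 9.92 in GW9662 samples against 9.79, 9.89, 10.16 and 10.25 in vehicle samples. Vehicle 3 and vehicle 4 made that difference of -0.17 ± 0.10, since the other 6 samples lay between 9.79 and 9.92, and without vehicle 4 it was -0.10 ± 0.09. Rhob, a small GTPase of the cytoskeleton, and Fosl2, an AP-1 subunit, were at 0.17 ± 0.17 and 0.15 ± 0.18 (SE), and at 0.05 ± 0.16 and 0.03 ± 0.18 without vehicle 4. The sign of the difference was not stable in most of the genes: it turned in 22 of the 32 in at least 1 of 15 other settings, as it did for Fosl2.

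**Figure D1:**
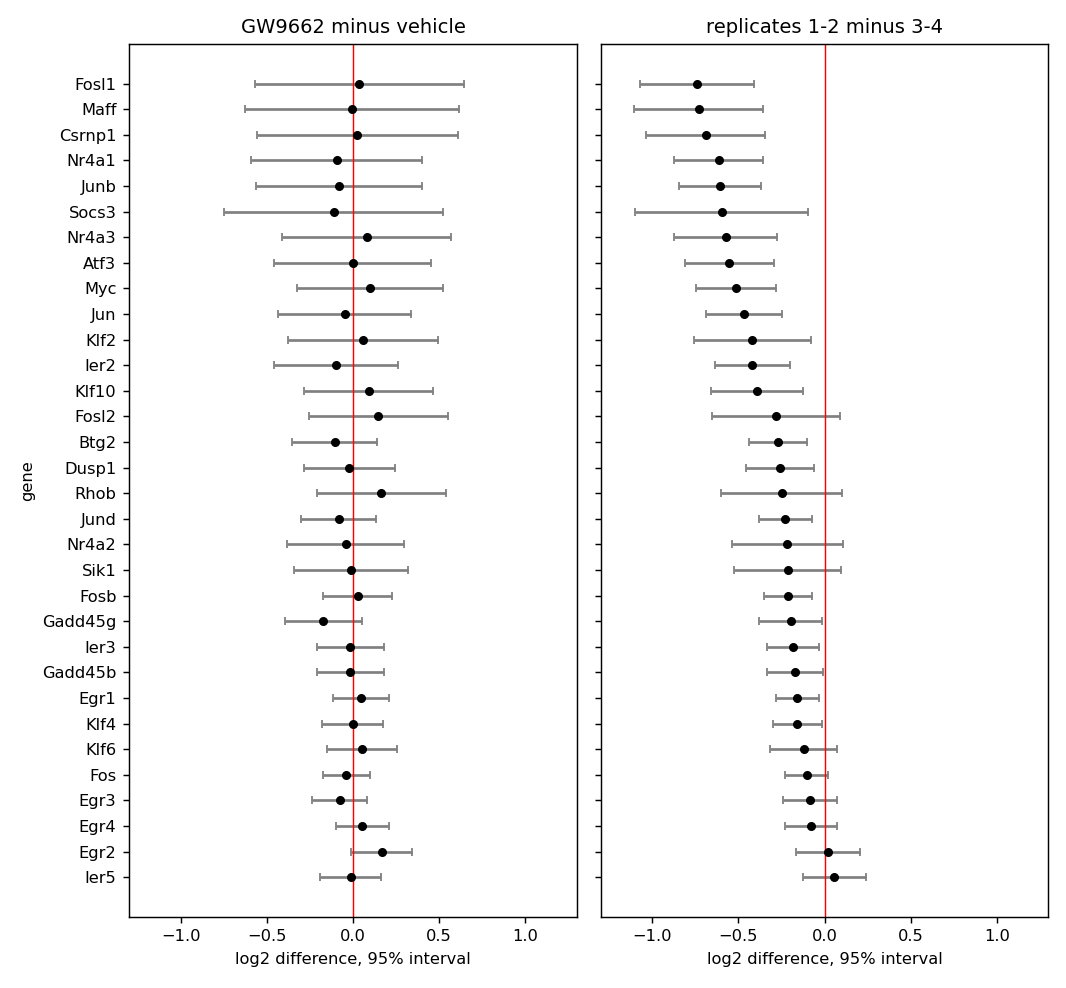
Log2 differences of the 32 genes with 95% intervals from limma, GW9662 minus vehicle on the left and replicates 1-2 minus replicates 3-4 on the right (4 samples against 4 in each panel). Every interval on the left includes 0, and 30 of the 32 points on the right lie below 0.

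Larger differences lay between the animals within each treatment. The median SD of the 32 genes over the 8 samples was 0.243, against 0.117 for all genes. The mean deviation of the 32 genes from their own means was -0.24, -0.15, 0.11 and 0.28 in GW9662 samples 1 to 4, and -0.07, -0.20, 0.26 and 0.0010 in vehicle samples 1 to 4. The samples numbered 1 and 2 were thus the 4 lowest, while those numbered 3 and 4 were the 4 highest, with vehicle 4 the nearest of these to the overall mean. Of the 32 genes, 17 had their highest value in GW9662 4 and 10 in vehicle 3, and 14 had their lowest in GW9662 1 and 7 in vehicle 2. In all, 31 genes peaked in a sample numbered 3 or 4, and 28 had their lowest value in a sample numbered 1 or 2. The shares of all genes for these counts are not given here, so how far the members depart from them is not known. The member mean did not follow the sample median over the 17097 genes, which was 5.25 to 5.30 (r = 0.13 over 8 samples).

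**Figure D2:**
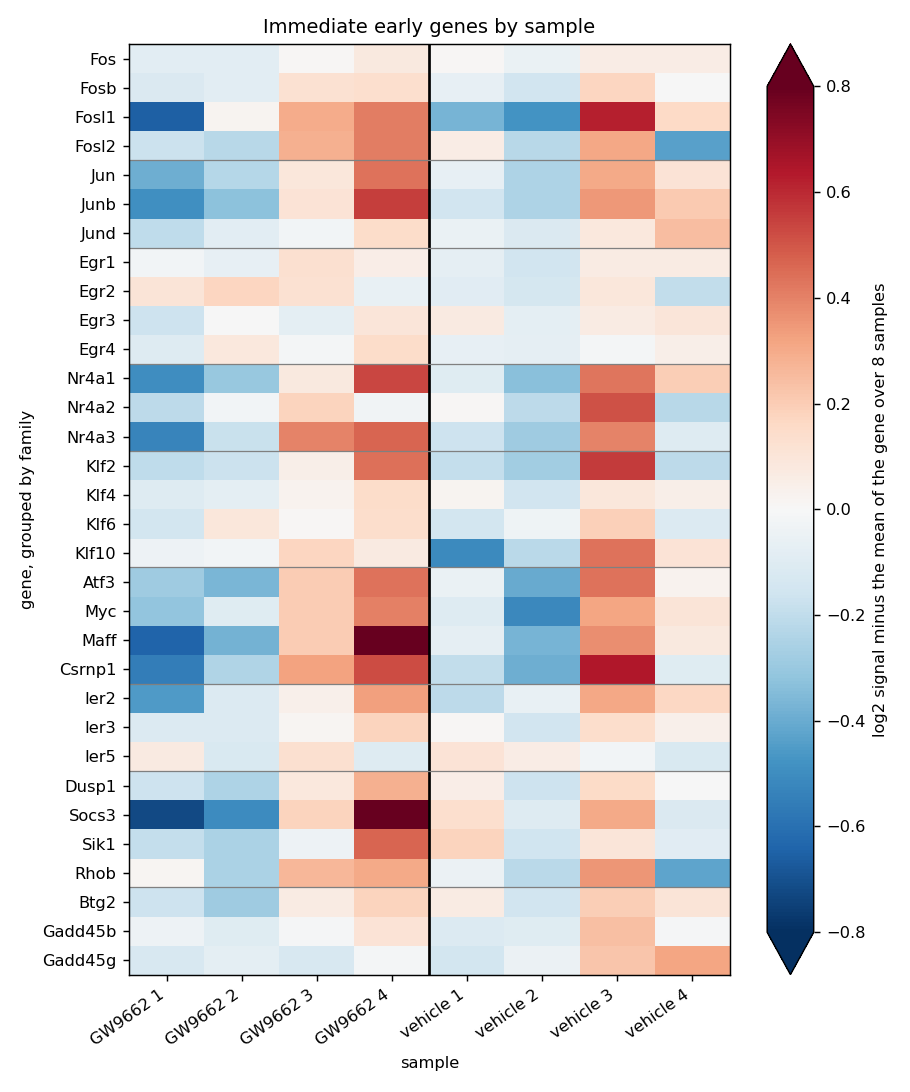
Log2 signal of each of the 32 genes in each sample minus the mean of that gene over 8 samples, with GW9662 samples to the left of the line and vehicle samples to the right, and genes grouped by family. Columns 1 and 2 of both treatments are mostly blue (below the mean), and column 3 of both and GW9662 4 mostly red. The column of vehicle 4 is mixed, with Fosl2 and Rhob at their lowest there. The rows of Egr2 and Ier5 do not show the contrast of the other columns.

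Replicates 1-2 had lower values than replicates 3-4 in 30 of the 32 genes, with a median log2 difference of -0.255, while all genes had a median of -0.010 and 53.2% of them were lower by any amount. By limma with treatment as a covariate, 0 of the 32 passed after adjustment over all genes (0.0% of all genes did), and the smallest adjusted p among them was 0.221, for Junb. At an unadjusted p under 0.05 the count was 22 of 32, all lower in replicates 1-2, against 9.75% of all genes (4.84% lower and 4.91% higher). All 4 samples of replicates 1-2 lay below all 4 of replicates 3-4 in 17 of the 32 genes, and 0 genes showed the reverse. In all genes the replicates did not overlap in 5.08%, with replicates 1-2 lower in 2.95% and higher in 2.12%. The difference was negative within GW9662 in 31 genes and within vehicle in 30, and in both in 29, against 30.7% of all genes. Its median was -0.37 within GW9662 and -0.21 within vehicle. Without vehicle 4 the median was -0.338. Then 22 genes did not overlap, all lower in replicates 1-2 (4.42% of all genes), and 24 had a limma unadjusted p under 0.05 in that direction (4.32% of all genes). The numbers are labels of animals and carry no order, and the grouping into 1-2 and 3-4 was set with earlier results of these data known. The limma fit of this split counted every sample as independent. If same-numbered samples share a day, each side holds fewer independent units than samples. The errors and p-values of the split, here and below, make no allowance for that.

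Jun proteins form AP-1 as pairs of their own or with Fos proteins. Junb measured 8.67, 8.83, 9.27 and 9.71 in GW9662 samples 1 to 4, and 9.01, 8.91, 9.51 and 9.37 in vehicle samples 1 to 4. Samples 1 and 2 of both treatments lay below samples 3 and 4 of both, with a mean of 8.86 ± 0.14 in replicates 1-2 against 9.47 ± 0.19 in replicates 3-4 (SD, n = 4 each). The log2 difference was -0.61 ± 0.11 (SE; limma unadjusted p = 0.0002), so that the signal in replicates 1-2 was 0.655 times that in replicates 3-4. Jun, the founding member, had 9.21, 9.37, 9.69 and 10.03 in GW9662 samples and 9.53, 9.35, 9.90 and 9.71 in vehicle samples, a difference of -0.47 ± 0.10, also without overlap. Jund, the member that is expressed steadily in many resting cells, differed less, by -0.23 ± 0.07, and its 8 values ran between 10.39 and 10.84.

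The Fos family, the inducible partners of Jun proteins in AP-1, held 2 bright genes of narrow range and 2 that varied more. Fos ranged only between 11.62 and 11.78, and Fosb between 11.59 and 11.92, where the highest value of any gene used here was 12.74. Their differences were -0.10 ± 0.06 and -0.21 ± 0.06 (SE). Fosl1, which encodes Fra-1 and is switched on after Fos, had the largest difference of the 32 genes. Fosl1 measured 6.91, 7.58, 7.86 and 7.97 in GW9662 samples, and 7.19, 7.08, 8.18 and 7.72 in vehicle samples. No value of replicates 1-2 reached the lowest of replicates 3-4, and the difference was -0.74 ± 0.15 (SE; limma unadjusted p = 0.0006, adjusted p = 0.240), or a signal 0.598 times as high. Its second, dimmer probe set gave -0.75. Fosl2, which encodes Fra-2, had 8.74, 8.69, 9.20 and 9.32 in GW9662 samples and 8.97, 8.69, 9.22 and 8.48 in vehicle samples. Vehicle 4 was the lowest of all 8 for Fosl2, and the difference was -0.28 ± 0.17, at -0.55 within GW9662 and -0.02 within vehicle. Without vehicle 4 the difference of Fosl2 was -0.48 ± 0.09.

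The Egr family varied little, with a median SD over the 8 samples of 0.0956, against 0.369 for the Nr4a family. Egr1, the zinc finger factor that answers serum and many growth signals, was the brightest of the 32 probe sets and measured 12.09, 12.05, 12.24 and 12.17 in GW9662 samples and 12.04, 11.96, 12.18 and 12.18 in vehicle samples. Replicates 1-2 lay below replicates 3-4 without overlap, at a difference of -0.16 ± 0.06 (SE). Egr2, whose values are given above, did not follow: its difference was 0.02 ± 0.08, and its mean was 9.67 ± 0.15 in replicates 1-2 and 9.65 ± 0.15 in replicates 3-4 (SD, n = 4 each). Egr3 (6.43 to 6.69) and Egr4 (4.45 to 4.70) were dimmer, with differences of -0.09 ± 0.07 and -0.08 ± 0.07. The family median was -0.08, against -0.25 for the Fos, -0.47 for the Jun and -0.58 for the Nr4a family.

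The Nr4a genes encode orphan nuclear receptors induced by cAMP and growth signals, and Nr4a1 and Nr4a3 were among the 10 genes of largest difference. Nr4a1, also called Nur77, measured 8.59, 8.78, 9.16 and 9.62 in GW9662 samples, and 8.99, 8.75, 9.51 and 9.28 in vehicle samples. Nr4a3 measured 7.39, 7.74, 8.31 and 8.38 in GW9662 samples, and 7.75, 7.63, 8.31 and 7.81 in vehicle samples. In both genes the 2 sets of animals did not overlap, narrowly so for Nr4a3 with vehicle 1 at 7.75 and vehicle 4 at 7.81, and the differences were -0.62 ± 0.11 and -0.58 ± 0.13 (SE; limma unadjusted p = 0.0004 and 0.0017). Nr4a2 was 9.0 in vehicle 3 and between 8.27 and 8.67 in the other samples, with a difference of -0.22 ± 0.14 (-0.36 ± 0.11 without vehicle 4). Its 4 other probe sets gave between -0.40 and -0.12.

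**Figure D3:**
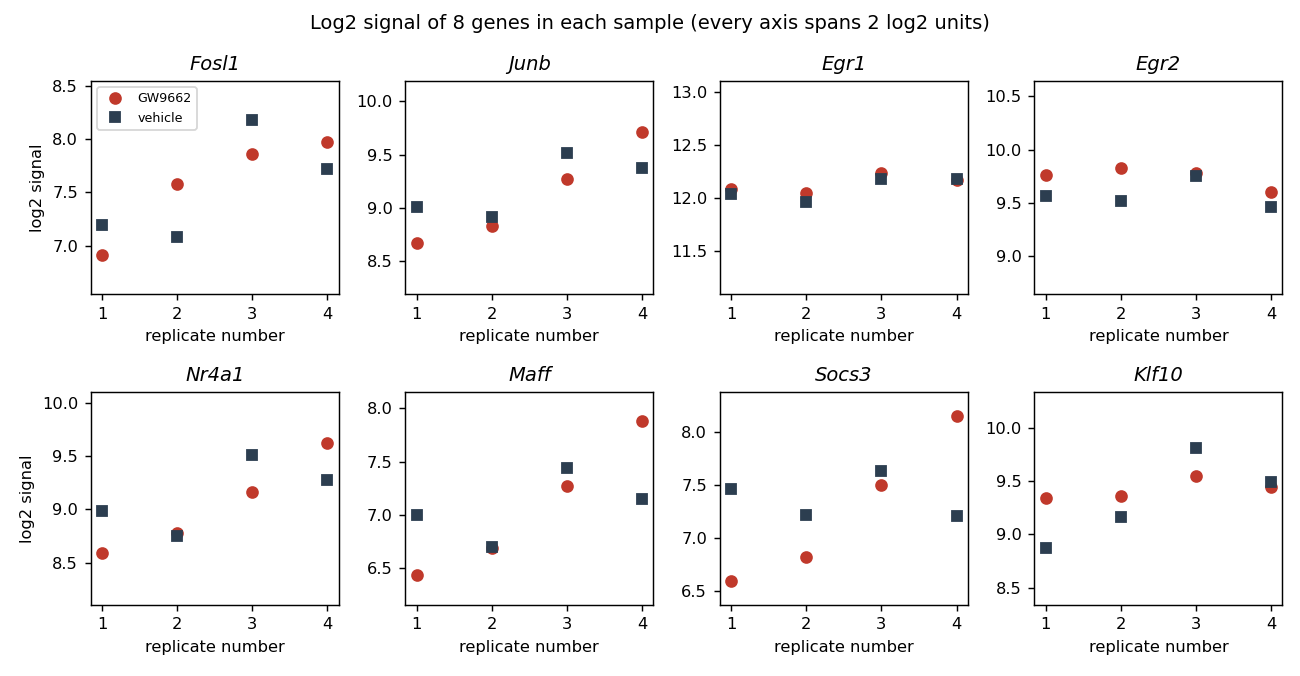
Log2 signal of 8 genes in each sample by replicate number, circles for GW9662 and squares for vehicle, each axis spanning 2 log2 units. Fosl1, Junb, Nr4a1 and Maff are lower at numbers 1 and 2 than at 3 and 4 in both treatments, Egr1 and Egr2 stay within a narrow band, Socs3 has its widest spread in GW9662 and Klf10 in vehicle.

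Of the Krüppel-like factors, Klf4, a factor of epidermal and vascular cells that is also induced by stress, measured 10.74 to 11.04 and differed by -0.16 ± 0.06 (SE) without overlap. Klf10, an early target of TGF-beta, measured 9.34, 9.36, 9.55 and 9.45 in GW9662 samples and 8.87, 9.16, 9.81 and 9.49 in vehicle samples. Its difference of -0.39 ± 0.12 was -0.15 within GW9662 and -0.64 within vehicle. Klf2, an inducer of quiescence in endothelial cells and lymphocytes, stood at 7.97 in vehicle 3 and 7.85 in GW9662 4, and between 7.13 and 7.46 in the other 6 samples. Its difference was -0.42 ± 0.15. Klf6 measured 10.21 to 10.55, at -0.12 ± 0.09.

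The 4 other factors were low in replicates 1-2 as a group, with a median of -0.62 and no overlap in any of them. Atf3, a stress-induced factor of the ATF/CREB family, measured 10.34, 10.26, 10.83 and 11.06 in GW9662 samples and 10.57, 10.22, 11.06 and 10.65 in vehicle samples, at -0.55 ± 0.11 (SE). Maff, a small Maf protein, measured 6.43, 6.69, 7.27 and 7.88 in GW9662 samples and 7.0, 6.70, 7.44 and 7.15 in vehicle samples, at -0.73 ± 0.17. GW9662 1 was the lowest and GW9662 4 the highest of the 8 for Maff. Csrnp1, a nuclear protein first found as an axin-induced gene, measured 9.28, 9.59, 10.15 and 10.35 in GW9662 samples and 9.63, 9.44, 10.47 and 9.73 in vehicle samples, at -0.69 ± 0.15. Myc, the growth regulator, ranged from 7.31 to 7.73 in replicates 1-2 and from 7.93 to 8.23 in replicates 3-4, at -0.52 ± 0.10. Limma unadjusted p of these 4 lay between 0.0007 and 0.0016.

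Among the partners, Ier2, a nuclear early response protein, measured 7.56, 7.90, 8.05 and 8.34 in GW9662 samples and 7.80, 7.95, 8.32 and 8.18 in vehicle samples, a difference of -0.42 ± 0.10 (SE) without overlap. Ier3, a regulator of survival, differed by -0.19 ± 0.07 and Ier5, the dimmest of the 32 probe sets, by 0.06 ± 0.08. Dusp1, the phosphatase that inactivates MAP kinases, measured 11.30, 11.22, 11.55 and 11.75 in GW9662 samples and 11.52, 11.30, 11.62 and 11.46 in vehicle samples, at -0.26 ± 0.09. Only vehicle 1 and vehicle 4 kept the Dusp1 values of replicates 1-2 and 3-4 from being apart.
Socs3, the inhibitor of cytokine receptor signalling through JAK and STAT, had the widest range of the 32 genes. Socs3 measured 6.60, 6.82, 7.50 and 8.15 in GW9662 samples, and 7.46, 7.22, 7.63 and 7.21 in vehicle samples. The GW9662 samples spanned more than the vehicle samples did, on both sides of them. Replicates 1-2 minus 3-4 was -1.12 within GW9662 and -0.08 within vehicle, and -0.60 ± 0.22 over both. Without vehicle 4 it was -0.29 within vehicle and -0.79 ± 0.20 over both.
Sik1, a kinase induced by cAMP, was at -0.22 ± 0.14 and Rhob at -0.25 ± 0.16, with vehicle 4 the lowest sample for Rhob at 8.63. Without vehicle 4, Rhob was at -0.44 ± 0.08. Of the growth arrest genes, Btg2, a p53 target, was at -0.27 ± 0.07, Gadd45b at -0.17 ± 0.07 and Gadd45g at -0.20 ± 0.08, and Gadd45b alone of these did not overlap. Without vehicle 4, Gadd45g was at -0.15 ± 0.08.

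The size of the split varied with the level of the probe set. The 10 genes with a mean over 10 differed by -0.55 to -0.10 (median -0.18), the 19 between 7 and 10 by -0.74 to 0.02 (median -0.42), and the 3 under 7, Egr3, Egr4 and Ier5, by -0.09 to 0.06. The part of the signal level in these differences was not tested. Of the 10 genes with more than 1 probe set, the 15 further sets gave differences of -0.91 to 0.02, with 14 of 15 lower in replicates 1-2, though in 0 of them were replicates 1-2 and 3-4 fully apart. The split was also compared between treatments. By limma's interaction of treatment with replicates 1-2 against 3-4, a test added after the values had been seen, 0 of the 32 passed after adjustment (0.0% of all genes) and 3 had an unadjusted p under 0.05 (5.56% of all genes). These were Socs3 at -1.04 ± 0.31 (SE; adjusted p = 0.70), Klf10 at 0.49 ± 0.19 (adjusted p = 0.860) and Gadd45g at 0.34 ± 0.13 (adjusted p = 0.860).

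Same-numbered samples, which may share a day of collection, were alike in part. Over all 17097 genes the deviations from the group means correlated at 0.20, 0.16, 0.11 and 0.16 for numbers 1 to 4, and each of the 8 samples matched best with its own number. For vehicle 2 and vehicle 3 the match was narrow. Vehicle 2 was at 0.163 with GW9662 2 and 0.159 with GW9662 1, and vehicle 3 at 0.114 with GW9662 3 and 0.111 with GW9662 2. Over the 32 genes the correlations of same-numbered samples were 0.29, 0.44, 0.69 and 0.04, with a mean of 0.36. Samples of different number had a mean of -0.13. Since the deviations of a group sum to 0 in each gene, that negative mean follows largely from the centring and is no separate comparison. Only 4 of the 8 samples matched best with their own number in these genes. GW9662 1 was most like vehicle 2 (0.71), and GW9662 4 was most like vehicle 3 (0.42). The most opposed samples were GW9662 4 and vehicle 2 (-0.62). These are correlations across genes, and genes are not independent replicates. The deviation had the same sign in both samples of a pair for 22, 24, 25 and 22 of the 32 genes in pairs 1 to 4. Some samples of different number shared signs more often. GW9662 1 and vehicle 2 lay below their group means in 30 and 31 genes, and GW9662 4 and vehicle 3 above in 29 and 31. The sign counts therefore do not show an agreement particular to equal numbers. Within pairs, GW9662 was lower than vehicle in 25 and 27 genes in pairs 1 and 3 (median -0.215 and -0.135), and higher in 19 and 27 genes in pairs 2 and 4 (median 0.035 and 0.22). For the sign counts and these pair counts the shares of all genes are not given here. By limma's F test over the replicate number, 0 of 32 genes passed after adjustment (0.0% of all genes; smallest adjusted p = 0.419) and 14 had an unadjusted p under 0.05, against 9.1% of all genes. That count rose without GW9662 4 or vehicle 4 and fell without any of the other samples, in fits where a replicate number kept a single sample. The largest F values were 10.4 for Fosl1, 10.4 for Junb and 9.42 for Ier2.

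**Figure D4:**
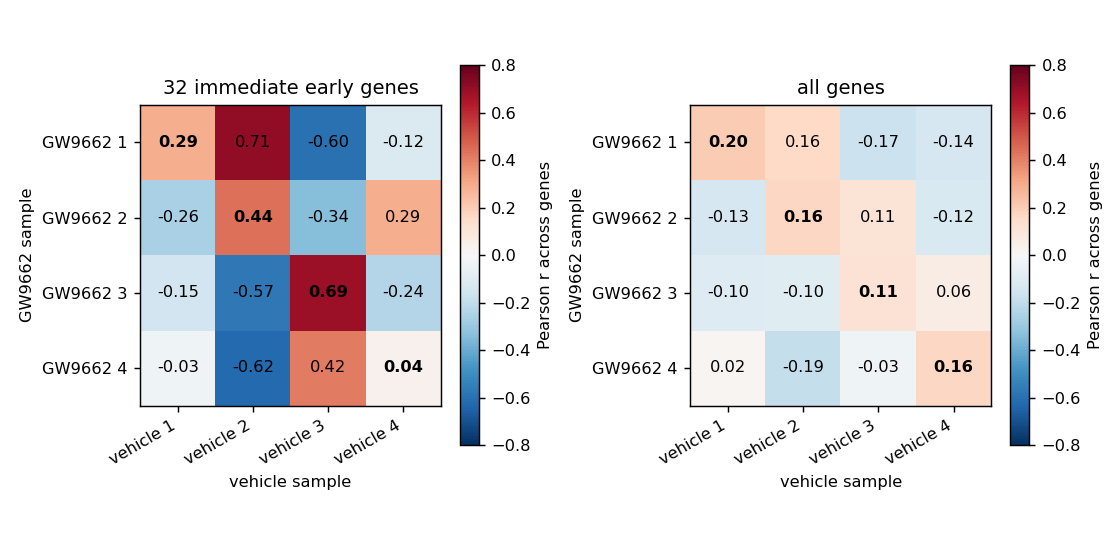
Pearson correlation of deviations from the group means between each GW9662 sample (rows) and each vehicle sample (columns), across the 32 immediate early genes on the left and across all 17097 genes on the right, with same-numbered pairs in bold. On the left the strongest values are 0.71 for GW9662 1 with vehicle 2 and 0.69 for GW9662 3 with vehicle 3. On the right every sample is most like its own number, at 0.11 to 0.20, though only narrowly for vehicle 2 and vehicle 3.

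The 32 genes varied together between samples. Over the 8 samples the median correlation of the 496 gene pairs was 0.68 (quartiles 0.46 and 0.84), 90.9% of the pairs were above 0 and 239 were above 0.7, while pairs of all genes had a median of 0.01 (quartiles -0.29 and 0.30). After the means of replicates 1-2 and 3-4 were removed the median was 0.39 and 77.0% of the pairs were above 0, against a median of 0.01 for all genes, so part of the common variation lay within replicates 1-2 and within 3-4. Without vehicle 4 the median over the remaining 7 samples was 0.752, and 0.36 after removal of those means. The points of these correlations share arrays, animals and days. The closest pairs were Jun with Nr4a1 (0.997), Jun with Junb (0.991), Jun with Maff (0.986), Ier3 with Klf4 (0.985) and Csrnp1 with Nr4a3 (0.977). By the median correlation with the other 31 genes, Jun (0.88), Nr4a1 (0.87) and Junb (0.86) stood at the centre of the set. At its edge stood Gadd45g (0.39), Egr2 (-0.0066) and Ier5 (-0.28). After removal of the means of replicates 1-2 and 3-4, the correlation with the mean of the other members was still 0.94 for Csrnp1 and 0.89 for Jun, but -0.20 for Egr1, -0.16 for Klf10 and -0.03 for Jund.

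The 10 genes outside all lists whose values were most like the member mean, among 8148 brighter genes, were Ifrd1 (r = 0.984 over 8 samples), Rec114, Txnrd1, Sertad1, Nfatc1, Sema4a, Pxdc1, Ackr3, Peli1 and Has1 (0.958). A total of 62 such genes had r above 0.9. Ifrd1 measured 8.82, 8.84, 9.52 and 9.82 in GW9662 samples and 8.99, 8.65, 9.81 and 9.25 in vehicle samples. Sema4a, a semaphorin, had 5.57, 5.60, 6.53 and 6.82 in GW9662 samples and 5.77, 5.80, 7.0 and 6.38 in vehicle samples. Samples 1 and 2 of both treatments lay below samples 3 and 4 in these 2 genes. These genes were chosen by that likeness, and their values are a description.

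Other genes of the early response were also mostly lower in replicates 1-2. Of 31 measured genes, 29 were lower in replicates 1-2 and 2 higher (53.2% of all genes were lower), with a median of -0.34. In 8 of the 31, replicates 1-2 lay fully below replicates 3-4 (2.95% of all genes). By limma, 18 had an unadjusted p under 0.05, all of them lower (4.84% of all genes), with 0 after adjustment. Examples were Nfkbiz, an inhibitor of the NF-kappa-B family, at -0.68 ± 0.13 (SE), Trib1, a pseudokinase, at -0.54 ± 0.09, and Tiparp, a target of the aryl hydrocarbon receptor, at -0.49 ± 0.10. Between GW9662 and vehicle their median was 0.03, with 0 of 31 at an unadjusted p under 0.05 in limma (3.38% of all genes). Hbegf, a ligand of the EGF receptor, was at 0.22, Sgk1, a kinase induced by serum and glucocorticoids, at 0.22 and Ccl2, a chemokine, at -0.26.

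The kinases and factors upstream of the response, whose activity is set mainly by phosphorylation and is not measured by an array, were spread around 0. Of 21 measured genes, 14 were lower and 7 higher in replicates 1-2 (median -0.03, with 53.2% of all genes lower). A limma unadjusted p under 0.05 was reached by 2 of the 21, against 9.75% of all genes, and by 4 without vehicle 4. The 2 were Stat3 (-0.25 ± 0.09, SE) and Rela (-0.23 ± 0.09), both lower, with Elk3, an ETS partner of SRF, at 0.13. Creb1, Map2k3 and Mrtfa were at -0.12, 0.23 and -0.10 for GW9662 minus vehicle. A list of 14 genes held Dusp, Spry and Spred genes with Ier5l, Etv4 and Etv5, not all of them inhibitors of ERK. It was evenly spread, with 7 lower and 7 higher in replicates 1-2 and a median of 0.0. Some of its probe sets were dim, such as Dusp6 (3.13 to 3.26) and Etv5 (3.40 to 3.87). Of the 14, 1, Dusp16 (-0.16 ± 0.07), had a limma unadjusted p under 0.05, against 9.75% of all genes, beside Dusp7 at 0.22 and Spry2 at -0.47. For GW9662 minus vehicle, 2 of the 14 had an unadjusted p under 0.05, against 3.38% of all genes: Spred1 (0.37 ± 0.07) and Spry4 (0.41 ± 0.17), with Spry1 at 0.24. Of 11 heat shock genes, which digestion also induces, 9 were lower and 2 higher in replicates 1-2 (median -0.13, with 53.2% of all genes lower). Of the 11, 4 had a limma unadjusted p below 0.05, against 9.75% of all genes, and 3 of these were lower, against 4.84%. Bag3, a partner of Hsp70, was at -0.35 ± 0.13, Dnaja1 at -0.24 ± 0.08 and Hspe1, a mitochondrial co-chaperonin, at 0.21 ± 0.09. For GW9662 minus vehicle, Hspb1 was at 0.22, Dnajb4 at 0.25 and Hspa1b at -0.16, with 0 of 11 at an unadjusted p under 0.05. None of these 3 lists had a gene past adjustment in limma in either comparison.

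**Figure D5:**
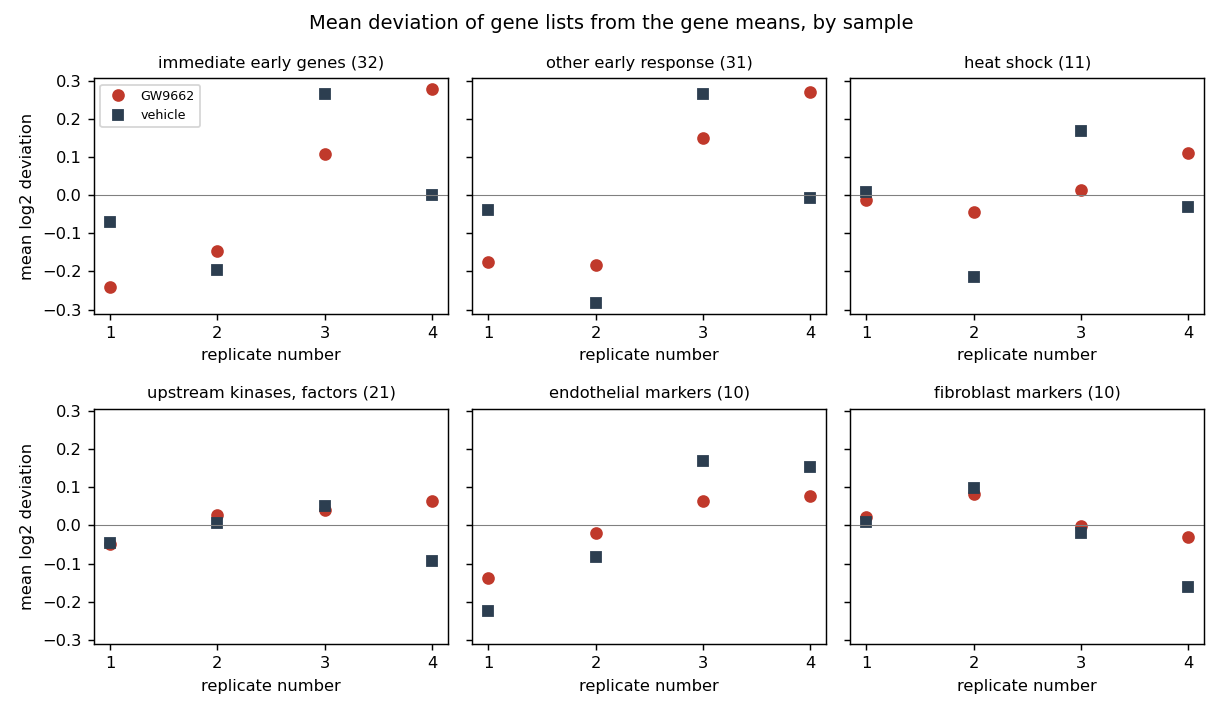
Mean deviation of 6 gene lists from the gene means (log2) in each sample by replicate number, circles for GW9662 and squares for vehicle, with the number of genes in brackets. The immediate early genes and the other early response genes lie below 0 at numbers 1 and 2 in both treatments, the endothelial markers likewise, the fibroblast markers lie above 0 there, and the upstream factors stay within 0.10 of 0.

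Markers of another cell type were lower in the same animals. The mean level of 10 endothelial markers was 4.65, 4.77, 4.85 and 4.87 in GW9662 samples, and 4.57, 4.71, 4.96 and 4.94 in vehicle samples. It was thus 4.57 to 4.77 in replicates 1-2 and 4.85 to 4.96 in replicates 3-4, without overlap, and 10 of 10 markers were lower in replicates 1-2, where 53.2% of all genes were. Of these, Pecam1 (-0.42), Tek (-0.55), Kdr (-0.69) and Tie1 (-0.18) had a limma unadjusted p under 0.05 (4.84% of all genes were lower at that p). Without vehicle 4 the count was 2 of the 10, against 4.32% of all genes. With all samples, 0 of the 10 passed after adjustment (smallest adjusted p = 0.182). Pecam1, the gene of CD31, a marker sorted against, measured 4.63 to 4.82 in replicates 1-2 and 5.08 to 5.27 in replicates 3-4. The endothelial markers with a larger p differed by less, from -0.125 for Vwf to -0.04 for Egfl7. Over the 8 samples Kdr measured 6.72 to 8.58, Tek 5.53 to 6.71, Egfl7 5.38 to 5.58, Esam 4.21 to 4.47 and Cldn5 3.94 to 4.39. Cdh5 measured 3.97 to 4.16, Tie1 3.52 to 3.90, Vwf 3.53 to 3.77 and Emcn 3.52 to 3.68, and whether these are above background is not known. In a bulk sample, more cells of a type and more RNA per cell cannot be told apart. The fibroblast markers ran the other way, at 10.36 ± 0.04 in replicates 1-2 and 10.26 ± 0.07 in replicates 3-4 (SD, n = 4 each), with 9 of 10 higher in replicates 1-2. Without vehicle 4, replicates 3-4 were at 10.29 ± 0.02 (n = 3), and limma's difference was higher in replicates 1-2 in 6 of the 10. The adipocyte list was at 4.27 ± 0.06 in replicates 1-2 and 4.39 ± 0.05 in replicates 3-4. Of its 5 markers, 4 were lower in replicates 1-2 (53.2% of all genes). At a limma unadjusted p under 0.05, 2 were lower (4.84% of all genes), and 1 without vehicle 4 (4.32%). The means of the keratinocyte and immune lists differed by less than their spread. Of 10 keratinocyte markers, Trp63 alone had such a p (0.0006, adjusted p = 0.240), against 9.75% of all genes. Trp63 was higher in replicates 1-2 by 0.36, at 6.52 to 6.83 against 6.06 to 6.49. Egr, Klf and Fos family genes are known in endothelial cells too, and the part of these markers in the split of the immediate early genes was not tested.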

How the data were processed

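Gene expression was measured on 8 arrays, 4 GW9662 and 4 vehicle, 1 per animal. The authors deposited log2 signal values to 2 decimals for 45141 probe sets; the submitters' processing notes name RMA and affy, and the base of the log follows from their range. Array annotation beyond the platform table and the processing build are not given in the sources used here. RMA equalises the arrays, so a shift common to all genes would not be seen, and amplification of RNA from 5000 cells can alter relative signals. Of the probe sets, 28898 had 1 gene, 551 with several were left out and 15692 were unnamed, which left 17097 genes, each with its brightest probe set.

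Groups were compared with limma 3.58.1 under R 4.3.3 (lmFit, eBayes, two-sided, no filter, Benjamini-Hochberg over all genes, threshold 0.05): GW9662 minus vehicle without covariates, and replicates 1-2 minus 3-4 and the replicate number (F test) with treatment as covariate. The number of animals limits the precision. Named genes were all 32 members, the 3 of smallest unadjusted p per comparison in each of 4 pathway lists, the sort markers and the 10 genes of highest correlation with the member mean. The endothelial markers and Trp63 were named after their values were seen. Members, lists and the split were chosen with earlier results of these data known. Same-numbered samples were read as pairs: their deviations correlated at 0.20, 0.16, 0.11 and 0.16 over all genes. Vehicle 2 and vehicle 3 matched a sample of another number nearly as well. The block was an alternative, beside trend and robust variances, brighter genes, all probe sets of a gene averaged, quantile normalisation applied again, median centring, array weights and each sample left out. The interaction, the lists and residual correlations without vehicle 4, the fit without vehicle 4 and GW9662 4, and the repeated count of genes without overlap were added after seeing the data. The procedure was tested on simulated data.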

Additional observations from a re-analysis of the deposited data

Results flagged for a closer look

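Each of the 32 genes was checked within each treatment for a sample far from the other 3, which made 64 groups of 4. In 1 of them the gap exceeded Dixon's 95% critical value of 0.829: Klf2 in vehicle 3, at 7.97, lay apart from vehicle 1, 2 and 4 (7.22, 7.13 and 7.20), with a gap of 0.893 of the range of the group. Chance flags about 1 in 20 such groups. Vehicle 3 was above the vehicle mean in 31 of the 32 genes.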

How the results depend on the processing

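After adjustment in limma, 0 of the 32 genes passed in any setting run for GW9662 minus vehicle, replicates 1-2 minus 3-4 or the replicate number. For GW9662 minus vehicle, the count at an unadjusted p under 0.05 was 1 in place of 0 with renewed quantile normalisation, with array weights and with the replicate block, the gene being Egr2 each time. The shares of all genes there were 3.80%, 4.22% and 4.83%. The count was 0 to 1 with a sample left out, against 2.15% to 5.19% of all genes. Egr2 was past that p without GW9662 4 (0.22) or vehicle 3 (0.23), and Gadd45g (-0.25) without vehicle 1. The replicate block left the median at -0.0075. With a sample left out the median ranged from -0.077 to 0.070. Over all 15 settings the sign of single genes turned in 69 of 478 values, in 22 genes. For replicates 1-2 minus 3-4, leaving out a sample gave medians of -0.338 (without vehicle 4) to -0.21, 15 to 24 genes at an unadjusted p under 0.05, and 17 to 22 without overlap. The shares of all genes were 6.45% to 12.6% at that p, and 4.39% to 5.57% without overlap and lower in replicates 1-2. Without vehicle 4 and GW9662 4 the median was -0.32. Over the 15 settings of that comparison only Egr2 changed sign, in 3 of 478 values. The F test had 8 (without vehicle 3) to 20 genes, against 14. The cause of these shifts was not tested. The median correlation of gene pairs stayed between 0.654 and 0.752, and the mean same-number correlation between 0.326 and 0.414. The limits are 4 animals per treatment, days that the labels do not tie to numbers, and no measure of signal over background.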
